A study of Homo sapiens with 12 samples.

Results

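SAHA (vorinostat), an inhibitor of the zinc-dependent histone deacetylases, was added to BEZ-235, an inhibitor of PI3K and mTOR, in NB-1 cells, a human neuroblastoma line. The comparison took 6 of the 12 libraries of the study: 3 from cells given 0.5 µM BEZ-235 with 0.5 µM SAHA (BEZ-235 & SAHA replicates 1 to 3) and 3 from cells given 0.5 µM BEZ-235 only (BEZ-235 replicates 1 to 3), all collected after 48 h. All 6 libraries therefore came from cells under BEZ-235, and by their labels the groups differed in SAHA alone. The other 6 libraries came from cells in DMSO, the solvent, and from cells given 0.5 µM SAHA, 3 of each, also at 48 h. They set the response beside that of cells without BEZ-235. They also entered the same fit, and so its count filter, its scaling, its estimate of the spread and the correction described below. The labels call the replicates biological, and polyadenylated RNA was sequenced with a kit that keeps strand. NB-1 is 1 line, so every result below concerns that line, and 17774 of the 58051 genes listed passed the filter on low counts and were tested.

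Histone deacetylases remove acetyl groups from lysines of histones and other proteins, and they act largely within repressor complexes such as NuRD, CoREST, Sin3 and NCoR. Their inhibition raises acetylation across chromatin and changes many genes in both directions. PI3K and mTOR carry growth signals from receptors such as ALK and the insulin receptor, and the FOXO transcription factors become active when that signalling stops. In neuroblastoma, a tumour of the sympathoadrenal lineage, MYCN and ALK are well-known drivers, and retinoids and deacetylase inhibitors are known to push cultured cells towards neuronal features.

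Before any gene was compared, the libraries showed a trend with base composition. Over the decile of tested genes with the lowest GC content (26.5% to 38.6% of transcript bases), the median log2 difference between both drugs and BEZ-235 was -0.59, and over the decile with the highest GC content (61.3% to 75.3%) it was 0.65. The 8 deciles between them rose in order. The 3 BEZ-235 & SAHA libraries lay at 0.20, 0.52 and 0.68 in the decile of highest GC content, relative to the mean of all 12 libraries, and the 3 BEZ-235 libraries at -0.01, -0.17 and -0.36, so the groups did not overlap there. In the decile of lowest GC content, the libraries with both drugs lay at -0.31, -0.35 and -0.52, and those with BEZ-235 at 0.02, 0.23 and 0.25. Between SAHA alone and DMSO, the median was 0.00 in the decile of lowest GC content and -0.28 in that of highest. The source of the trend was not tested, and because it separates the groups it cannot be told apart from a response to SAHA under BEZ-235. Each test was therefore made on the counts as deposited and again after a per-library correction for GC content and transcript length, which brought the medians to between -0.01 and 0.04.

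**Figure D1:**
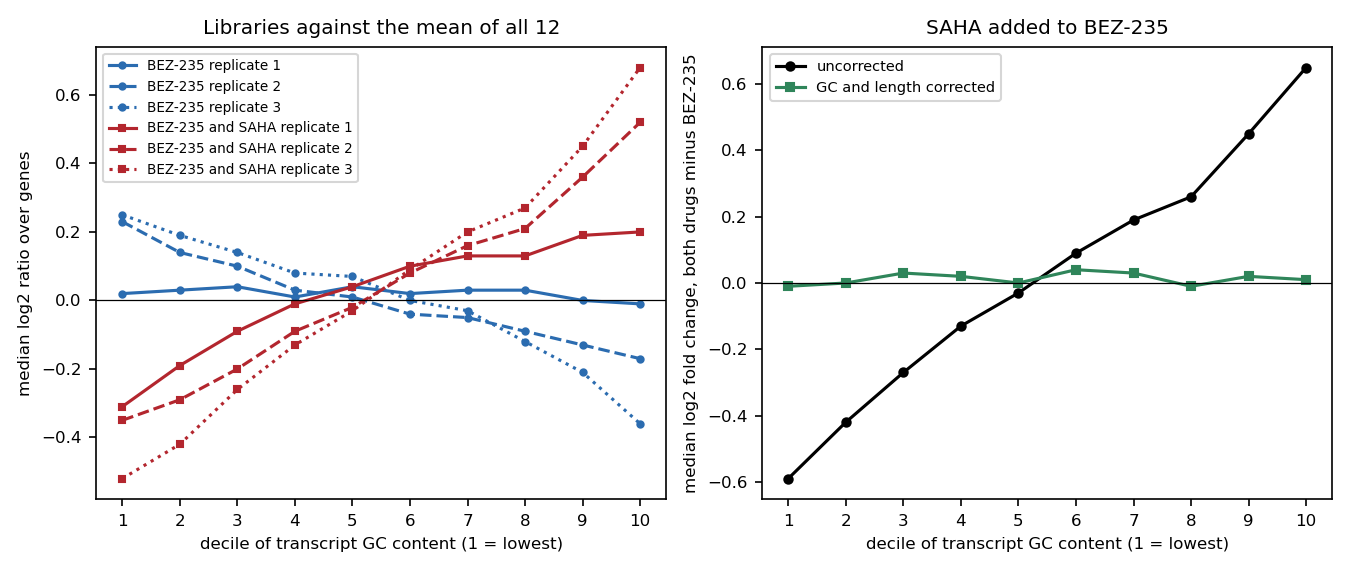
Left: median log2 ratio to the mean of all 12 libraries (y axis) over deciles of the tested genes ordered by GC content (x axis), 1 line for each of the 3 BEZ-235 and 3 BEZ-235 & SAHA libraries. Right: median log2 difference between both drugs and BEZ-235 in the same deciles, before and after the correction, rising from -0.59 to 0.65 before it and staying between -0.01 and 0.04 after it.

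A gene is called here when its Benjamini-Hochberg adjusted p from edgeR was under 0.05, and "in both fits" means the same direction with and without the correction. Uncorrected, 10305 genes (58.0%) were called, 5246 higher (29.5%) and 5059 lower (28.5%) with SAHA added. Corrected, 9940 genes (55.9%) were called. Both fits called 7319 genes (41.2%) in the same direction: 3844 (21.6%) were higher and 3475 (19.6%) were lower, and 1408 (7.92%) and 540 (3.04%) of these differed at least 2-fold in both fits. The correction decided many calls: 2762 genes were called uncorrected only, 2397 corrected only, and 224 went from one direction to the other. Below, "rose" and "fell" are used of genes called in both fits, log2 fold changes are uncorrected with their standard error unless named as corrected, and levels are counts scaled to library size (CPM) that carry no GC correction. Counts of list members that rose or fell stand against the 21.6% and 19.6% of all genes tested that did. The libraries held 17662944 to 79543539 counts, and replicates correlated at 0.978 to 0.992, lowest among the libraries with both drugs. HAND2, a transcript that marks sympathoadrenal neuroblastoma, had a mean of 419 CPM with BEZ-235 and 605 CPM with both drugs. It belongs to a list of adrenergic genes described below, of which 8 rose and 6 fell of 26 tested. TFAP2B, of the same list, had 1 count summed over all 12 libraries. Since RNA was taken from whole cultures, a change in the share of a kind of cell and a change in RNA per cell cannot be told apart.

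The 12 genes that rose most and the 12 that fell most, ranked by uncorrected log2 fold change, are described first. They were taken from genes whose mean log2 CPM was at least 3 and whose groups did not overlap. DHRS2, a short-chain dehydrogenase gene long known to respond to deacetylase inhibitors in other lines, rose most. Its locus on chromosome 14 (14:23630115-23645639, hg38, ENSG00000100867) gave 4.29, 4.28 and 3.91 CPM with BEZ-235 and 104, 77.2 and 114 CPM with both drugs. The groups were far apart, with a 23.7-fold difference (log2 4.57 ± 0.15, adjusted p = 6.17e-12, corrected 4.52 ± 0.15). Without BEZ-235 the gene had 1.57, 1.65 and 1.25 CPM in DMSO and 6.48, 7.76 and 6.45 CPM with SAHA.

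The other 11 of the highest genes encode proteins of many kinds. ITGA7, the integrin alpha 7 chain that binds laminin, had 7.18, 6.20 and 5.89 CPM with BEZ-235 and 60.8, 67.5 and 71.6 CPM with both drugs (log2 3.38 ± 0.13, adjusted p = 2.78e-11, corrected 2.93). CRTAC1, a secreted cartilage protein, had 2.68, 2.89 and 2.80 against 27.6, 29.3 and 32.3 CPM (3.41 ± 0.15, corrected 2.94). ETNK2, an ethanolamine kinase of phospholipid synthesis, had 5.63, 5.62 and 5.07 against 47.7, 44.2 and 47.3 CPM (3.10 ± 0.11, corrected 2.67). In these 3 genes every library with both drugs stood above every library with BEZ-235 by a wide margin, and the correction took about the same amount from each. PMEL, a melanosome matrix protein foreign to this lineage, had 10.7, 9.09 and 10.1 against 88.0, 82.3 and 74.4 CPM (3.03 ± 0.09, corrected 2.85), and LUM, the matrix proteoglycan lumican, had 9.60, 12.5 and 10.1 against 118, 83.8 and 82.3 CPM (3.14 ± 0.14, corrected 3.73). The remaining 6 were PDZD7 (3.24 ± 0.16), a scaffold protein of hair cells, the lipid transporter gene ABCA7 (3.08 ± 0.28), the kinase gene PRKCD (2.93 ± 0.12), SPATS1 (2.85 ± 0.15), the collagen gene COL5A1 (2.81 ± 0.17) and the ephrin gene EFNA3 (2.80 ± 0.11). Their corrected values ran from 2.29 for EFNA3 to 2.80 for SPATS1.

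Among the lowest 12, LGR5, an R-spondin receptor and stem cell marker in epithelia, fell most. It lies on chromosome 12 (12:71439770-71586310, hg38, ENSG00000139292) and had 31.4, 32.8 and 36.2 CPM with BEZ-235 and 5.63, 5.07 and 3.23 CPM with both drugs (log2 -2.86 ± 0.18, adjusted p = 3.71e-09, corrected -2.66 ± 0.15). The groups did not overlap. CD200, a surface glycoprotein that restrains myeloid cells, fell from 48.7, 51.4 and 54.2 to 12.6, 11.3 and 11.6 CPM (-2.12 ± 0.12, corrected -1.86). MFAP4, a microfibril protein, fell from 31.7, 32.2 and 32.6 to 7.23, 6.73 and 7.78 CPM (-2.15 ± 0.11, corrected -2.44). H19, an imprinted long noncoding RNA, was the most abundant of the 12, at 1089, 1252 and 955 CPM with BEZ-235 and 244, 302 and 317 CPM with both drugs (-1.93 ± 0.15, adjusted p = 1.33e-07, corrected -2.53). All 3 genes were also lower with SAHA alone than with DMSO, and H19 had 328, 433 and 485 CPM there against 4427, 4111 and 3397 CPM in DMSO.

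The other 8 of the lowest genes were of varied function. BMI1, a core protein of Polycomb repressive complex 1, had 81.7, 115 and 114 against 26.5, 32.6 and 21.0 CPM (-1.96 ± 0.17, corrected -1.49), and LIN9, a subunit of the DREAM and MuvB complexes that govern cell cycle genes, had 21.0, 26.6 and 24.1 against 6.59, 5.30 and 5.10 CPM (-2.08 ± 0.13, corrected -1.72). HORMAD1, a meiotic chromosome protein found in some tumours, had 82.2, 97.9 and 99.4 against 22.9, 22.3 and 16.1 CPM (-2.19 ± 0.12, corrected -1.55). For each of these the lowest library with BEZ-235 exceeded the highest with both drugs more than 2-fold. The zinc finger gene ZNF107 (-2.35 ± 0.18, corrected -1.74), the sialic acid acetyltransferase gene CASD1 (-2.26 ± 0.18, corrected -1.75), GLMN (-1.97 ± 0.13, corrected -1.33), the cell death inhibitor gene AVEN (-2.01 ± 0.16, corrected -2.22) and the kinase gene CDK3 (-1.96 ± 0.14, corrected -2.26) completed the 12. ZNF107 belongs to a large family of similar genes, and CDK3 shares its exons with a read-through gene, so the split of their reads is uncertain.

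**Figure D2:**
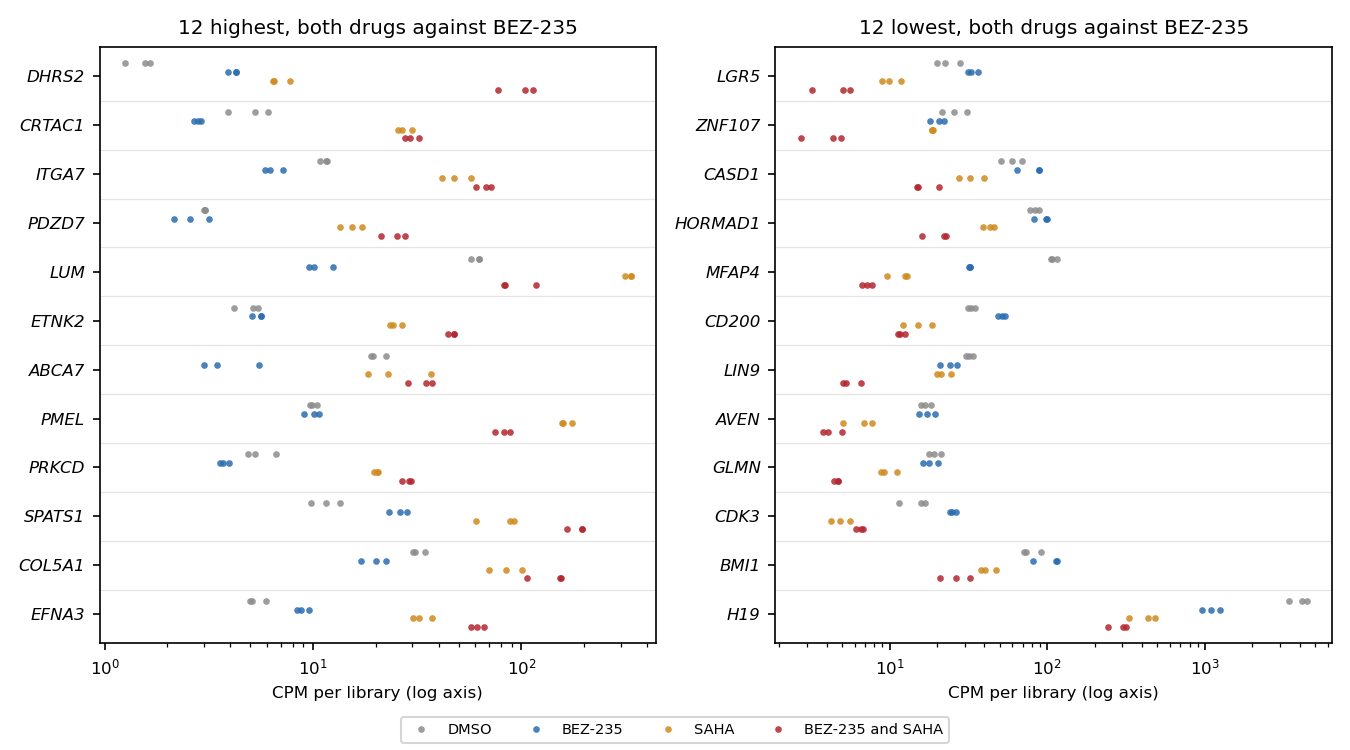
CPM in each library (x axis, log scale), with the libraries of all 4 groups as points. Shown are the 12 genes that rose most (left) and the 12 that fell most (right) by uncorrected change with SAHA added to BEZ-235. DHRS2 lies between 77.2 and 114 CPM with both drugs and below 8 CPM in the other 3 groups, whereas LUM and PMEL stand highest with SAHA alone.

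Promoters of 4 of these 24 genes are shown because their expression moved most clearly and their base composition differs widely. Each runs from 250 bases before to 50 after the start site and comes from RefSeq on GRCh38.p14. Of the 12 highest and the 12 lowest genes, 7 each had a single promoter in that table. Capitals mark matches, on either strand, to GGGCGG (a GC box), to the CCAAT box, to TATAAA, to TTTGAA (the core of the site for TCF factors) or CACGTG (an E-box). The DHRS2 promoter is 44.0% GC, at chr14:23629865-23630164, plus strand. Those of ETNK2 (83.7% GC, chr1:204151995-204152294, minus strand) and CRTAC1 (77.7% GC, chr10:98030572-98030871, minus strand) are much richer in GC, and that of CD200, which fell, is 53.7% GC (chr3:112332906-112333205, plus strand).
DHRS2: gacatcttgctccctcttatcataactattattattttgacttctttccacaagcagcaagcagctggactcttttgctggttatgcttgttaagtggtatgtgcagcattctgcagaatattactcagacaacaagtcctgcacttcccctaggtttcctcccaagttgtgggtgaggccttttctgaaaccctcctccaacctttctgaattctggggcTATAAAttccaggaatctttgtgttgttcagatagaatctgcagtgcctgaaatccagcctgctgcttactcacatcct
ETNK2: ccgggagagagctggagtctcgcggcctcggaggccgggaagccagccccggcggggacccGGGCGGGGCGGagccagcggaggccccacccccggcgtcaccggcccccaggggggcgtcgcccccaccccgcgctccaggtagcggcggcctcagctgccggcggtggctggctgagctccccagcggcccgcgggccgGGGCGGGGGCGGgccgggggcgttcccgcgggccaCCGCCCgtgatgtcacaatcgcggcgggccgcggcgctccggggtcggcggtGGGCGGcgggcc
CRTAC1: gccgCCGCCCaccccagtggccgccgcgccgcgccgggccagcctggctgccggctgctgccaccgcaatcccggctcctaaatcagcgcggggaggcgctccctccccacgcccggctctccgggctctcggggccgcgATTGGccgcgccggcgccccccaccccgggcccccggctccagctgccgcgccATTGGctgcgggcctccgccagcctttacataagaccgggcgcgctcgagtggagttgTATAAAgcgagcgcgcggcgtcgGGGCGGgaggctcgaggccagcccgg
CD200: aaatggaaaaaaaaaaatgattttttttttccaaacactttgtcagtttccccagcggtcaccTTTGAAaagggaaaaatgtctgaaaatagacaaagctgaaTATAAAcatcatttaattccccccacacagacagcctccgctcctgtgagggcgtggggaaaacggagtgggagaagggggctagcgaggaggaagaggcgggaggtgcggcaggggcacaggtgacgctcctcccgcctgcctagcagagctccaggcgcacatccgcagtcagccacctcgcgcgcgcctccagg
The ETNK2 window holds 6 matches to GGGCGG and the CRTAC1 window 2, next to 2 of CCAAT, while the DHRS2 window holds none of GGGCGG and 1 of TATAAA. Among the promoters read, GGGCGG occurred in 5 of 7 of the highest genes and 3 of 7 of the lowest, against 64.6% of 16222 promoters of tested genes. CCAAT occurred in 4 of 7 and 1 of 7 against 34.6%, TATAAA in 2 of 7 and 1 of 7 against 6.3%, TTTGAA in 0 of 7 and 1 of 7 against 10.4%, and CACGTG in none of either set against 9.3%. With 7 promoters a set these are descriptions only, and a match is not a bound site.

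Genes widely used as markers of deacetylase inhibition mostly rose. Of 31 listed, 26 were tested, and 14 rose while 5 fell, against 21.6% and 19.6% of all genes tested. The median log2 change was 0.79 (corrected 0.57), beside 0.01 over all genes in either fit. After DHRS2, the actin-severing protein gene GSN was at 9.33, 5.99 and 7.48 CPM with BEZ-235 and 25.3, 34.0 and 39.8 CPM with both drugs (2.12 ± 0.23, corrected 2.08). CLU, which encodes the chaperone clusterin, rose from 340, 299 and 301 to 545, 548 and 600 CPM (0.85 ± 0.08, corrected 0.75). CDKN1A, the cyclin-dependent kinase inhibitor p21, rose from 94.1, 87.8 and 81.1 to 145, 149 and 164 CPM (0.80 ± 0.08, adjusted p = 6.08e-07, corrected 0.44 ± 0.06). Both CLU and CDKN1A were picked as members with the smallest p. The linker histone genes HIST1H1C (1.52 ± 0.18) and H1F0 (0.45 ± 0.08), the metallothionein genes MT2A (1.31 ± 0.22) and MT1X (0.94 ± 0.24), which have near-identical relatives, and TXNIP (0.68 ± 0.08), an inhibitor of thioredoxin, rose as well.

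The 5 markers that fell were of mixed kind. TYMS (-0.55 ± 0.12) and CTPS1 (-0.79 ± 0.09) make pyrimidine nucleotides, and deacetylase inhibitors are known to lower such genes. HIST2H2BE fell from 98.6, 77.9 and 82.7 to 30.7, 26.2 and 24.1 CPM (-1.68 ± 0.10, adjusted p = 2.94e-09, corrected -1.67), and HIST1H2BK fell from 16.6, 14.2 and 12.4 to 6.11, 7.50 and 7.78 CPM (-1.01 ± 0.15, corrected -1.58). Both encode histone H2B, have many close relatives, and are in the list as genes that rise under such drugs in other cells. KLF4, the fifth, was rare, at 0.642 to 0.750 CPM with BEZ-235 and 0.266 to 0.455 CPM with both drugs (-0.96 ± 0.36, adjusted p = 0.0294). Its call was lost without BEZ-235 replicate 1 or 3 or without BEZ-235 & SAHA replicate 1 or 2, with adjusted p of 0.0686, 0.0636, 0.0975 and 0.0688, and it was also lost in DESeq2 (0.0904), without the filter on low counts (0.0951) and in a fit of the 2 groups alone (0.0517). The 7 markers without a call in both fits ran from -0.16 for HIST1H2BD to 2.16 for S100A10, which was below 1 CPM in every library. Of these, TUBB3, a neuronal tubulin gene, changed sign between the fits (0.16 uncorrected, -0.34 corrected).

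The machinery of histone acetylation itself changed unevenly. None of the 14 acetyltransferase and BET reader genes rose, 6 fell, and the median was -0.26 (corrected -0.33). KAT6B fell from 106, 120 and 133 to 54.0, 59.0 and 59.5 CPM (-1.06 ± 0.10, corrected -0.94), CREBBP from 149, 131 and 150 to 82.4, 90.7 and 92.9 CPM (-0.69 ± 0.08, corrected -0.95), and KAT2A from 123, 99.4 and 106 to 66.6, 81.5 and 75.6 CPM (-0.56 ± 0.11, corrected -0.99). All 3 are acetyltransferases, picked by the smallest p, and none had overlapping groups, as in 30.8% of all genes in this direction. Of the 32 genes for class I deacetylases and their scaffolds, 7 rose and 6 fell, shares close to those of all genes, with a median of 0.00. HDAC1 (0.50 ± 0.08) and HDAC3 (0.42 ± 0.07), direct targets of SAHA, rose by similar steps.

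Within the NuRD complex, 2 related remodelling ATPases moved in opposite directions. CHD5, a neuronal gene on chromosome 1 (1:6101793-6180123, hg38), had 3.48, 3.21 and 3.48 CPM with BEZ-235 and 18.0, 23.7 and 26.8 CPM with both drugs (2.75 ± 0.17, corrected 2.28). CHD3 fell from 161, 142 and 144 to 85.3, 99.5 and 86.0 CPM (-0.72 ± 0.08, corrected -0.99). The NCoR subunit gene TBL1XR1 (-1.08 ± 0.12, corrected -0.43) and the CoREST gene RCOR3 (-0.76 ± 0.08, corrected -0.16 ± 0.06, adjusted p = 0.0446 corrected) fell, the latter narrowly after correction. Of the 7 class II and IV deacetylase genes none fell and 3 rose in both fits (median 0.37, corrected 0.15). Taken by itself, the corrected fit called 3 higher and 2 lower. Those that rose were HDAC11 (1.33 ± 0.14, corrected 0.84), HDAC5 (0.92 ± 0.09, corrected 0.42) and HDAC9 (0.30 ± 0.09, corrected 0.71). The HDAC9 call was lost without BEZ-235 replicate 1 (0.24, adjusted p = 0.0528). Among 7 sirtuin genes, deacetylases of another class that SAHA does not bind, 3 rose and 2 fell (median 0.27, corrected -0.10). SIRT4 (1.58 ± 0.21, corrected 1.49), SIRT6 (1.31 ± 0.17, corrected 0.65) and SIRT2 (0.65 ± 0.08, corrected 0.21) rose. SIRT1 (-0.82 ± 0.10) and SIRT5 (-0.45 ± 0.09, corrected -0.44) fell.

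Histone genes with polyadenylated transcripts were lower in 8 of 23 and higher in 3 (median -0.06, corrected -0.18; 26 listed). Besides HIST2H2BE, HIST1H2AC fell from 59.8, 63.9 and 61.8 to 22.4, 28.8 and 22.6 CPM (-1.33 ± 0.11, corrected -1.01), and H2AFY2, which encodes the variant macroH2A2, fell from 123, 119 and 120 to 50.2, 56.3 and 60.3 CPM (-1.12 ± 0.10, corrected -1.27). Only H1F0, HIST1H1C and H2AFV (0.33 ± 0.07, corrected 0.57), a gene for an H2A.Z variant, rose in this list. Of 27 Polycomb genes 7 rose and 6 fell, with a median of 0.06 (corrected 0.01). BMI1, the PRC2 subunit gene SUZ12 (-0.97 ± 0.11, corrected -0.44) and PCGF6 (-1.04 ± 0.14, corrected -0.73) fell. CBX7 (0.94 ± 0.12, corrected 0.54) and RING1 (0.72 ± 0.08, corrected 0.21, adjusted p = 0.0376 corrected), both subunits of PRC1, were among those that rose.

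The study's title names 3 genes. MYCN, the oncogenic transcription factor of this tumour (2:15940564-15947007, hg38), had 1091, 1001 and 1005 CPM with BEZ-235 and 770, 719 and 887 CPM with both drugs. The groups did not overlap, as in 30.8% of all genes in this direction, and MYCN fell in both fits (-0.38 ± 0.10, adjusted p = 0.00356; corrected -0.69 ± 0.08, adjusted p = 2.59e-06). HBP1, a transcription factor that restrains the cell cycle (7:107168961-107202529), had 104, 119 and 117 against 106, 76.6 and 78.3 CPM. The first replicate with both drugs lay within the BEZ-235 range, and the uncorrected difference (-0.39 ± 0.10, adjusted p = 0.00423) was not called after correction (-0.12 ± 0.07, adjusted p = 0.158). ALK, a receptor tyrosine kinase (2:29192774-29921566), had 5074, 4958 and 5086 against 4330, 4791 and 5259 CPM. Its groups overlapped, and only the corrected fit called it (-0.07 ± 0.09, adjusted p = 0.523; corrected -0.42 ± 0.08, adjusted p = 1.78e-04).

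Target genes of MYC and MYCN fell together. Of 37 tested, 28 fell and 1 rose, against 19.6% and 21.6% of all genes, and the median was -0.51 (corrected -0.46). CAD, which starts pyrimidine synthesis, fell from 144, 121 and 131 to 56.6, 62.6 and 60.4 CPM (-1.14 ± 0.08, adjusted p = 9.86e-09, corrected -1.48 ± 0.06). The nucleolar genes GNL3 (204, 203 and 201 against 132, 113 and 114 CPM; -0.76 ± 0.08, corrected -0.42) and NOP2 (119, 97.5 and 104 against 67.4, 65.0 and 58.0 CPM; -0.75 ± 0.09, corrected -1.01) fell too. PHB (0.48 ± 0.10, corrected 0.30), a mitochondrial chaperone gene, was the 1 that rose. The summed level of the list fell from 9623 to 9908 CPM in the BEZ-235 libraries to 6421 to 7334 CPM in those with both drugs. Among genes repressed by MYC or MYCN, 11 of 17 rose and none fell (19 listed; median 0.80, corrected 0.57). DKK3, a secreted protein lost in many tumours, rose from 41.7, 45.7 and 41.9 to 141, 119 and 133 CPM (1.60 ± 0.09, corrected 1.44). NDRG1 (9.49, 13.6 and 12.3 against 31.6, 30.3 and 36.4 CPM; 1.47 ± 0.13) and NDRG2 (27.6, 28.1 and 24.9 against 71.9, 75.8 and 75.2 CPM; 1.47 ± 0.08), of the N-myc downstream regulated family, rose by equal steps.

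Genes of DNA replication fell more often than they rose. Of 42 replication and G1/S genes 21 fell and 4 rose, against 19.6% and 21.6% of all genes (median -0.39, corrected -0.41). MCM4, a subunit of the replicative helicase, fell from 89.5, 82.6 and 87.3 to 41.7, 41.3 and 37.5 CPM (-1.11 ± 0.08, corrected -1.11), and POLE2, a polymerase epsilon subunit, from 4.50, 5.24 and 4.69 to 1.97, 1.43 and 0.819 CPM (-1.79 ± 0.21). RFC3, part of the clamp loader, fell by 1.00 on the log2 scale (corrected -0.53). Against this direction, the nucleotide kinase gene TK1 (1.15 ± 0.16, corrected 0.57), the cyclin gene CCNE1 (0.88 ± 0.17, corrected 0.74) and E2F2 (0.95 ± 0.16, corrected 0.61) rose, from levels of at most 5 CPM with BEZ-235. TK1, for example, had 3.27, 3.21 and 2.41 CPM with BEZ-235, 5.85, 6.34 and 7.28 CPM with both drugs and 48.3, 52.1 and 41.4 CPM in DMSO.

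Of 42 mitosis and G2/M genes, 10 fell, a share near the 19.6% of all genes, 3 rose and 29 were not called in both fits (median -0.22, corrected -0.11). CCNB2, a B-type cyclin (27.9, 30.1 and 31.0 against 16.3, 15.9 and 17.3 CPM; -0.85 ± 0.11, corrected -0.68), NUF2, a kinetochore protein (-0.78 ± 0.11, corrected -0.30), and the cyclin gene CCNA2 (-0.75 ± 0.12, corrected -0.45) fell. MKI67, the proliferation antigen, rose from 159, 160 and 173 to 222, 207 and 221 CPM (0.40 ± 0.09, corrected 0.40), as did MYBL2 (0.97 ± 0.13, corrected 0.50). The call of KIF4A (0.20 ± 0.08, adjusted p = 0.0484) was lost under most single-library omissions, with adjusted p up to 0.157 without BEZ-235 & SAHA replicate 1, and also with other size factors (0.0521), without the filter on low counts (0.261) and in a fit of the 2 groups alone (0.11). Among 19 tested genes of the G1 checkpoint (inhibitors, D cyclins and their kinases, and RB family genes), 6 rose and only CDK6, a kinase partner of the D cyclins, fell (387, 515 and 498 against 241, 263 and 225 CPM; -0.94 ± 0.13, corrected -0.49). CDKN2D, the p19 inhibitor of CDK4 and CDK6, rose from 8.42, 7.01 and 7.27 to 25.5, 24.3 and 26.6 CPM (1.75 ± 0.13, corrected 1.26), and CCND3 (1.04 ± 0.12, corrected 0.77) rose too.

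The p53 targets and the BCL2 family had no common direction. Of 26 p53 targets 6 rose and 6 fell. FDXR (1.07 ± 0.17, corrected 0.54), CDKN1A and BTG2 (0.54 ± 0.08) rose, while CCNG1 (56.7, 66.1 and 68.6 against 34.0, 26.6 and 22.4 CPM; -1.21 ± 0.14, corrected -0.71), TRIAP1 (-1.02 ± 0.13) and MDM2, the p53 ubiquitin ligase (-0.84 ± 0.10, corrected -0.53), fell. Of 16 tested BCL2 family genes 3 rose and 4 fell. The proapoptotic BH3-only gene BID fell from 54.0, 50.5 and 49.2 to 23.4, 22.2 and 20.4 CPM (-1.22 ± 0.10, corrected -1.26), and BCL2L11, which encodes BIM, fell by 0.36 on the log2 scale. The antiapoptotic gene BCL2 fell from 82.4, 69.2 and 83.1 to between 46.4 and 52.5 CPM in the 3 libraries with both drugs (-0.66 ± 0.11, corrected -0.56). BMF (0.52 ± 0.10, corrected 0.32), BAD (1.04 ± 0.17, corrected 0.30) and BNIP3 (0.31 ± 0.08), all BH3-containing and proapoptotic, rose.

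Neuronal structure and vesicle genes rose more often than they fell. Among 27 tested neurite and cytoskeleton genes 15 rose and 2 fell, against 21.6% and 19.6% of all genes (median 0.46, corrected 0.28). GAP43, a growth cone protein, had 17.6, 19.1 and 16.2 CPM with BEZ-235 and 69.9, 65.1 and 71.3 CPM with both drugs (1.96 ± 0.10, adjusted p = 4.73e-10, corrected 1.99 ± 0.09). Without BEZ-235 it had 119, 114 and 101 CPM in DMSO and 213, 251 and 263 CPM with SAHA, so all 3 libraries with both drugs lay below those of DMSO. NEFM, the medium neurofilament, rose from 84.3, 63.8 and 69.8 to 221, 209 and 225 CPM (1.59 ± 0.09), and L1CAM, an axonal adhesion molecule, from 396, 359 and 340 to 844, 968 and 1027 CPM (1.37 ± 0.10, corrected 0.93). In contrast, MAP2, a dendritic protein, fell from 164, 187 and 196 to 110, 120 and 114 CPM (-0.66 ± 0.10, corrected -0.36), and NEFH, the heavy neurofilament, fell as well (-0.35 ± 0.07, corrected -0.69).

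Of 33 tested synapse and secretory vesicle genes 17 rose and 5 fell (39 listed; median 0.38, corrected 0.27). SCG2, the granule protein secretogranin II, rose from 173, 144 and 163 to 676, 563 and 585 CPM (1.93 ± 0.10, adjusted p = 6.02e-10, corrected 2.17). SYT7 (2.19 ± 0.15), a calcium sensor of exocytosis, and RAB3A (1.43 ± 0.09), a vesicle GTPase, rose. PCSK1, the protease that matures peptide hormones, fell from 69.4, 110 and 96.6 to 34.5, 33.5 and 33.6 CPM (-1.45 ± 0.14, corrected -1.20), and the vesicle genes CADPS (-0.99 ± 0.12) and SV2C (-0.74 ± 0.10) fell. Only 8 of 20 neuropeptide genes were tested, of which 3 rose and 1 fell. TAC3, which encodes neurokinin B, rose from 15.2, 11.7 and 14.1 to 35.6, 33.5 and 35.0 CPM (1.35 ± 0.18), VIP from 2.57, 3.42 and 2.84 to 8.08, 6.01 and 6.37 CPM (1.21 ± 0.17, corrected 1.78), and CALCB rose by less (0.70 ± 0.16). ADCYAP1, which encodes PACAP, fell from 64.4, 79.5 and 74.5 to 42.3, 41.9 and 44.5 CPM (-0.76 ± 0.10, corrected -0.53).

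The 2 identity programmes of neuroblastoma did not shift as blocks. Of 26 tested adrenergic genes 8 rose and 6 fell (27 listed; median 0.16, corrected 0.05), and of 21 tested mesenchymal genes 5 rose and 5 fell (25 listed; median 0.06, corrected -0.01). On the adrenergic side, the transcription factor gene TBX2 (0.94 ± 0.12, corrected 0.44), the granule protein gene CHGA (0.84 ± 0.10, corrected 0.28) and MAOA (0.81 ± 0.12, corrected 0.83) rose, while DDC, which makes dopamine (132, 160 and 141 against 85, 90.0 and 96.9 CPM; -0.67 ± 0.10), SATB1 (-0.84 ± 0.09) and the noradrenaline transporter gene SLC6A2, present below 1 CPM (-1.83 ± 0.40), fell. On the mesenchymal side, NOTCH3 rose from 7.50, 8.99 and 5.98 to 39.2, 46.7 and 47.8 CPM (2.58 ± 0.14, adjusted p = 6.02e-10, corrected 2.00), FN1 from 46.6, 43.4 and 50.1 to 92.8, 100 and 94.4 CPM (1.03 ± 0.09, corrected 1.33), and VIM from 1353, 1309 and 1328 to 2416, 2068 and 2488 CPM (0.81 ± 0.09, corrected 0.85). CD44, a hyaluronan receptor, fell from 205, 175 and 200 to 70.1, 74.1 and 67.9 CPM (-1.45 ± 0.08, adjusted p = 7.69e-10, corrected -1.33), and the transcription factor genes RUNX1 (-1.41 ± 0.17) and ZEB2 (-0.94 ± 0.09, corrected -0.46) fell.

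Genes of other lineages were examined as a group, since deacetylase inhibitors are known to open silent genes. Of 47 such genes only 12 passed the count filter, and those that passed through the group where they were high had to differ. Their summed level was 25.7 to 26.4 CPM with BEZ-235 and 110 to 120 CPM with both drugs, where PMEL alone had 74.4 to 88.0 CPM. TNNT1, a slow muscle troponin, had 0.107, 0.214 and 0.129 against 3.93, 4.14 and 5.01 CPM (4.83 ± 0.45), and TEX19, a germ cell gene, had 1.72, 1.28 and 1.33 against 15.9, 15.4 and 16.8 CPM (3.48 ± 0.17). TNNT2, the cardiac troponin gene (-0.95 ± 0.27), and the apolipoprotein gene APOC1 (8.58, 10.4 and 8.77 against 3.08, 2.48 and 2.69 CPM; -1.75 ± 0.16) fell. The melanocyte enzyme gene TYR had no count in any library, beside the rise of PMEL.

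Markers of cells that could accompany neuroblasts were read in the same way. Of 15 fibroblast markers 13 were tested, of which 11 rose and 1 fell (median 1.65, corrected 1.32), the highest median of any list with at least 5 tested members. A marker that passed the count filter only through a group where it was high had to differ. Their summed level was 70.0 to 81.9 CPM with BEZ-235 and 337 to 364 CPM with both drugs, against 184 to 203 CPM in DMSO and 560 to 646 CPM with SAHA alone. LUM, COL5A1 and PDGFRB, a growth factor receptor (6.22, 5.72 and 5.76 against 17.3, 18.0 and 20.3 CPM; 1.65 ± 0.14), rose. The 2 untested markers, FAP and POSTN, had 0 and 2 counts summed over 12 libraries. What part other cells have in this rise was not tested. The 2 chains of type I collagen parted: COL1A1, chosen after its values were seen, had a mean of 0.765 CPM with BEZ-235 and 20.9 CPM with both drugs (log2 4.79, corrected 4.29), while COL1A2 fell from 1.66, 2.73 and 1.85 to 1.01, 0.772 and 0.819 CPM (-1.25 ± 0.26, corrected -0.93). Of 12 Schwann cell and glial markers 8 were tested and summed to 335 to 372 CPM with BEZ-235 and 369 to 394 CPM with both drugs. ERBB3 (0.161, 0.107 and 0.0430 against 2.07, 1.49 and 1.27 CPM) and S100B (0.482, 0.428 and 0.301 against 2.02, 2.21 and 1.32 CPM) rose within low levels, and SOX10 and CDH19 had no count. Of 12 leukocyte markers 1 was tested, FCER1G, at 1.77, 1.18 and 1.20 against 0.372, 0.607 and 0.501 CPM (-1.48 ± 0.39), and the T cell marker CD3D had no count.

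Within the pathway that BEZ-235 blocks, few genes shifted in common. Of 37 tested genes of ALK, insulin receptor, PI3K and mTOR signalling 6 rose and 5 fell (39 listed; median -0.04, corrected -0.15). PIK3CD, the catalytic p110 delta subunit best known from leukocytes, had 0.268, 0.481 and 0.301 CPM with BEZ-235 and 8.08, 8.05 and 8.24 CPM with both drugs (4.53 ± 0.26, adjusted p = 1.58e-09, corrected 4.20). In DMSO it had 0.366, 0.235 and 0.178 CPM, so it passed the count filter through the groups with SAHA, where it was high, and had to differ. SESN2, a stress-induced inhibitor of mTORC1 (0.98 ± 0.15, corrected 0.55), and IGF2R, a scavenger of IGF2 (0.72 ± 0.09), rose, while IRS1, an adaptor of the insulin receptor (-0.68 ± 0.12), RPS6KB1, the S6 kinase (-0.83 ± 0.08, corrected -0.31), and RICTOR, the mTORC2 subunit (62.4, 75.7 and 77.5 against 33.5, 40.3 and 26.9 CPM; -1.10 ± 0.15, corrected -0.53), fell. FOXO targets, which rise when PI3K is blocked, split into 9 higher and 6 lower of 28 tested (31 listed; median -0.07, corrected 0.07). GABARAPL1, an autophagy protein, rose from 14.8, 13.2 and 14 to 38.7, 31.3 and 32.3 CPM (1.29 ± 0.12, corrected 1.30), with PINK1 (1.09 ± 0.11) and FOXO4 (1.01 ± 0.10), but SESN3 fell from 192, 266 and 265 to 105, 116 and 86.8 CPM (-1.23 ± 0.13, corrected -0.68), with FBXO32 (corrected -0.78 ± 0.10) and KLHL24 (-0.98 ± 0.09, corrected -0.40).

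Genes that report RAS and MAPK signalling rose in 13 of 29 tested and fell in 3 (31 listed; median 0.40, corrected 0.29). They include feedback inhibitors: SPRY2 rose from 58.7, 59.2 and 54.7 to 127, 115 and 126 CPM (1.09 ± 0.08, adjusted p = 3.19e-08, corrected 1.09) and SPRED3 from 9.06, 8.18 and 9.68 to 27.4, 25.8 and 26.5 CPM (1.56 ± 0.10, corrected 1.18). ETV4, a transcription factor induced by this pathway, rose from 21.2, 20.0 and 21.0 to 34.4, 39.3 and 40.0 CPM (0.87 ± 0.10, corrected 0.38). The immediate early genes FOS (5.31, 10.8 and 8.64 against 4.41, 3.64 and 4.83 CPM; -0.94 ± 0.22) and EGR3 (-1.40 ± 0.26) fell, as did SPRED1 (-0.76 ± 0.11, corrected -0.27).

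Autophagy and lysosome genes rose in 26 of 38, and only ATG14 fell (-0.50 ± 0.09), against 21.6% and 19.6% of all genes (median 0.46, corrected 0.37). Their summed level was 2657 to 2794 CPM with BEZ-235 and 3616 to 3893 CPM with both drugs. Besides GABARAPL1, the autophagosome protein gene WIPI1 rose from 13.7, 14 and 13.8 to 28, 24.5 and 25.6 CPM (0.92 ± 0.09, corrected 0.88). Interferon response and antigen presentation genes were higher in 17 of 32 tested and lower in 3 (38 listed; median 0.49, corrected 0.44). IFI6 rose from 1.18, 0.856 and 0.989 to 6.59, 5.74 and 8.19 CPM (2.76 ± 0.21, corrected 2.47), the class I heavy chain HLA-E from 78.5, 85.8 and 73.2 to 165, 167 and 187 CPM (1.13 ± 0.09, corrected 0.91), and HLA-B from 181, 176 and 156 to 321, 325 and 384 CPM (1.01 ± 0.09, corrected 0.61). The HLA genes are close paralogs and their reads can be shared. The peptide loading gene TAPBP (-0.35 ± 0.09, corrected -0.68) and the immunoproteasome gene PSMB8 (-0.56 ± 0.10) fell. The lower call of the peptide transporter gene TAP2 (-0.25 ± 0.09, adjusted p = 0.0210) was lost without BEZ-235 replicate 1 (-0.18, adjusted p = 0.105) or 3 (0.0526) and without BEZ-235 & SAHA replicate 3 (0.0611).

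Lipid synthesis genes fell in 11 of 32 tested and rose in 5 (33 listed; median -0.02, corrected -0.09). The fatty acid desaturase genes fell: SCD had 370, 326 and 356 against 208, 200 and 186 CPM (-0.83 ± 0.08), FADS1 240, 234 and 248 against 133, 133 and 128 CPM (-0.87 ± 0.07) and FADS2 149, 122 and 128 against 67.8, 73.5 and 72.4 CPM (-0.90 ± 0.08, corrected -1.27). The cholesterol enzyme gene HSD17B7 (0.87 ± 0.12, corrected 1.19) and the acetyl-CoA synthetase gene ACSS2 (0.76 ± 0.09) were among those that rose. In glycolysis 9 of 23 genes rose and 3 fell (median 0.25, corrected 0.10). ALDOC (29.5, 29.9 and 29 against 72.1, 67.2 and 70.6 CPM; 1.25 ± 0.08), the neuronal enolase gene ENO2 (0.65 ± 0.07) and HK1 (0.59 ± 0.07) rose, whereas LDHA (-0.56 ± 0.09), HK2 (-0.57 ± 0.07) and the glucose transporter gene SLC2A1 (-0.70 ± 0.14) fell. Of the hexokinase genes named, the widely expressed HK1 rose while HK2, typical of growing cells, fell.

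Stress programmes were mixed. Of 33 ATF4 targets and amino acid supply genes 10 fell and 5 rose (median 0.03, corrected -0.23): MTHFD2, a mitochondrial folate enzyme, fell from 131, 138 and 138 to 58.4, 52.4 and 50.4 CPM (-1.34 ± 0.09, adjusted p = 5.97e-09, corrected -0.99), and the amino acid transporter gene SLC38A2 from 265, 258 and 316 to 132, 116 and 83.8 CPM (-1.34 ± 0.14, corrected -0.83). NUPR1 fell too, from below 1.5 CPM (-2.70 ± 0.40), while the serine synthesis gene PSPH (0.70 ± 0.11), ATF3 (0.67 ± 0.13) and SESN2 rose. Of 25 unfolded protein response genes 5 fell and 3 rose, with the chaperone gene HSPA5 at 335, 308 and 330 against 242, 196 and 200 CPM (-0.61 ± 0.09), XBP1 at -0.59 ± 0.09 (corrected -0.25) and DNAJB9 at -0.99 ± 0.15, all lower, and ERO1B (1.28 ± 0.22), the sensor gene ERN1 (0.73 ± 0.12) and the ligase gene SYVN1 (0.50 ± 0.09, corrected 0.23) higher. Of 21 heat shock and chaperone genes 5 rose and 3 fell, near the 21.6% and 19.6% of all genes. Those that rose included the small chaperones HSPB8 (7.08, 8.67 and 7.35 against 40.8, 35.2 and 43.1 CPM; 2.37 ± 0.14) and HSPB1 (1.90 ± 0.19, corrected 1.25) and their partner BAG3 (1.04 ± 0.10). Those that fell were HSPH1 (-0.87 ± 0.15, corrected -0.46) and the mitochondrial chaperones HSPD1 (-0.60 ± 0.09) and HSPE1 (-0.31 ± 0.10), the last without a call when BEZ-235 & SAHA replicate 2 was left out (-0.24, adjusted p = 0.0706).

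Ribosomal protein genes changed little: 6 of 40 rose and 3 fell (median 0.07, corrected 0.09). RPL18 (0.70 ± 0.12), RPLP1 (0.49 ± 0.14) and RPL27 (0.43 ± 0.10) rose, and RPL10 fell from 1879, 1892 and 1750 to 1366, 1187 and 1412 CPM (-0.48 ± 0.10). The lower call of RPL30 (-0.32 ± 0.12) was lost without BEZ-235 replicate 2 (adjusted p = 0.0831), BEZ-235 & SAHA replicate 2 (0.127) or BEZ-235 & SAHA replicate 3 (0.0524). All of these genes have processed pseudogenes that can take reads. The 13 mitochondrially encoded genes summed to 73602 to 84909 CPM with BEZ-235 and 65565 to 82610 CPM with both drugs, overlapping, and 1 of them, MT-ND4L, fell (-0.47 ± 0.12, corrected -0.34). Of 29 homologous recombination and Fanconi repair genes 8 fell and 4 rose (median -0.32, corrected -0.19). FANCM, a DNA translocase, fell from 11, 11.8 and 12.9 to 4.73, 3.59 and 3.23 CPM (-1.64 ± 0.15, corrected -1.10), with FANCL (-0.86 ± 0.12) and PALB2, the partner of BRCA2 (-0.68 ± 0.09), while RAD51B (1.34, 0.695 and 1.25 against 3.24, 3.86 and 2.69 CPM; 1.56 ± 0.25), FANCE (0.91 ± 0.08) and UBE2T (0.51 ± 0.11) rose.

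**Figure D3:**
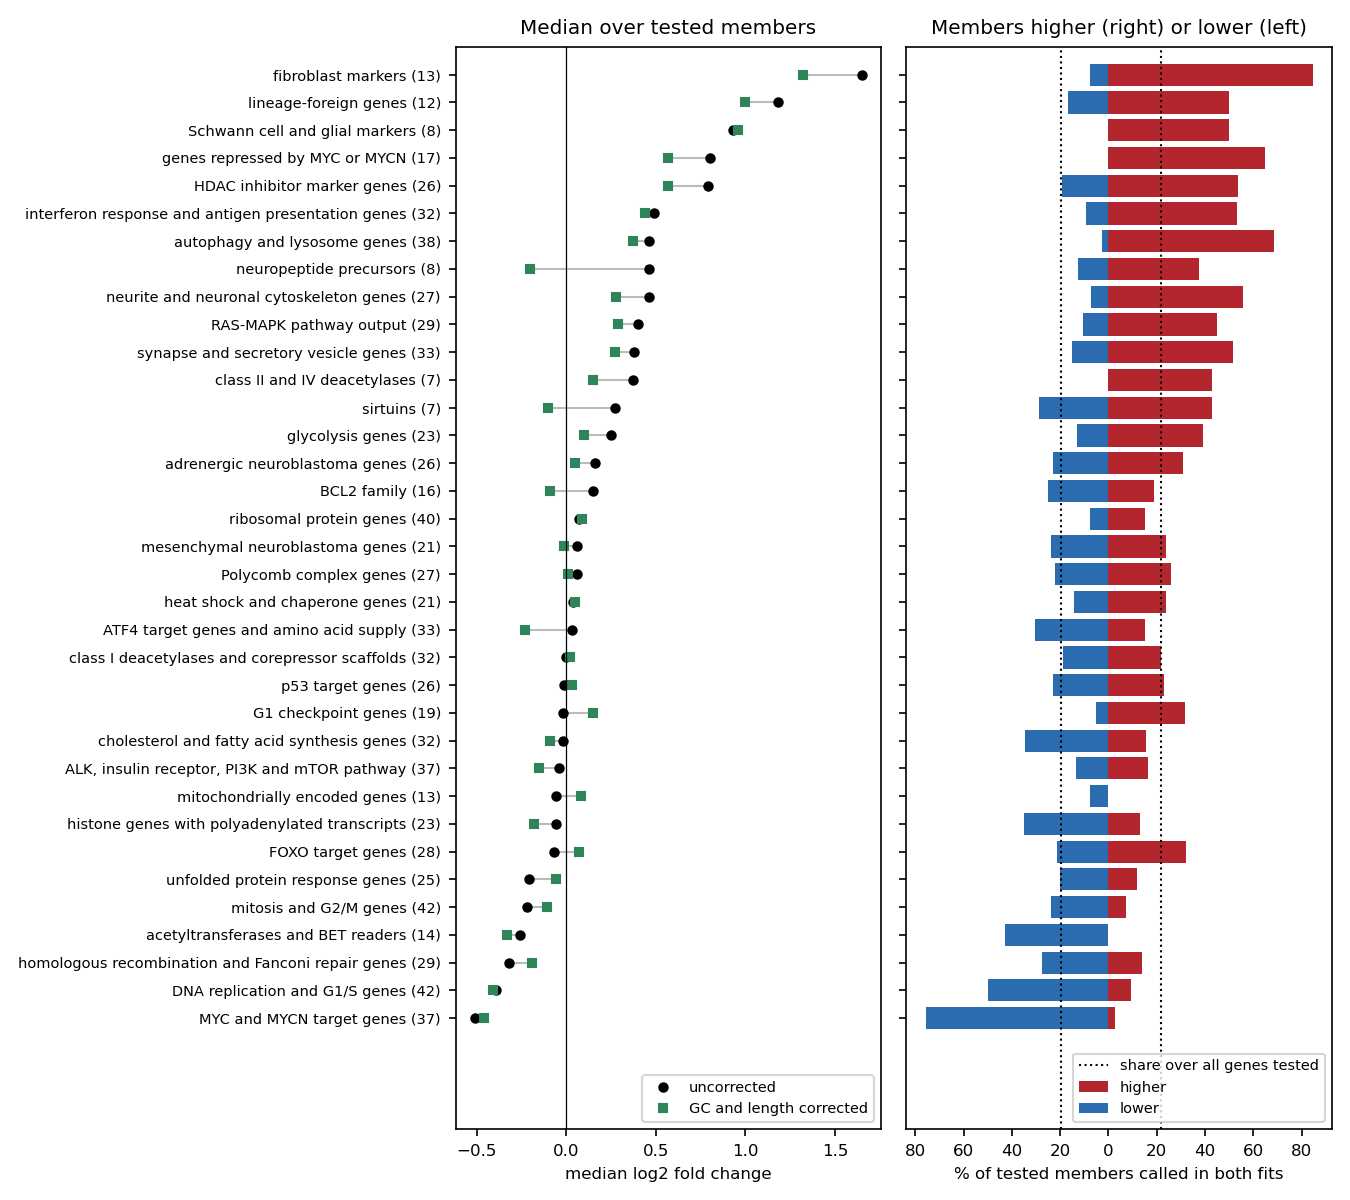
Left: median log2 fold change of both drugs against BEZ-235 (x axis) over the tested members of 35 gene lists (number tested in brackets), uncorrected and corrected. Right: percent of tested members called higher (right) or lower (left) in both fits, with dotted lines at the shares over all genes tested, 21.6% and 19.6%; MYC and MYCN target genes (28 of 37 lower) and autophagy and lysosome genes (26 of 38 higher) lie far beyond them.

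Gene families were also read by name, a choice made after values were seen, and so without a test. Of 461 tested genes whose symbols begin with ZNF, most of them zinc finger transcription factors, 195 fell and 26 rose, against 19.6% and 21.6% of all genes (median -0.42, corrected -0.24). Of the 228 on chromosome 19, where these genes lie in clusters, 98 fell and 6 rose. Their median GC content was 43.1%, in the range where the uncorrected medians were negative, so the corrected value is the one to read beside the count. Of 26 collagen genes 19 rose and 1 fell (median 1.36, corrected 1.16), and their median GC content was 61.2%. Clustered protocadherin genes fell in 14 of 42 and rose in 5 (median -0.25, corrected -0.19).

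SAHA was also given without BEZ-235, and the comparison of those libraries with DMSO shares no sample with the one above, though 1 fit gave the spread for both. It called 7658 genes (43.1%) uncorrected, and in both fits 7220 (40.6%), of which 3729 (21.0%) were higher and 3491 (19.6%) lower. The genes that moved in the same direction in both settings numbered 4071, which is 55.6% of the calls with SAHA added to BEZ-235 and 56.4% of the calls with SAHA alone: 2304 were higher in both and 1767 lower in both. Over all 17774 genes the log2 changes correlated at 0.52 uncorrected and 0.62 corrected, a description over genes, which are not independent. A further 1460 genes rose and 1630 fell with BEZ-235 present without a call in both fits for SAHA alone, and 158 had calls in opposite directions.

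**Figure D4:**
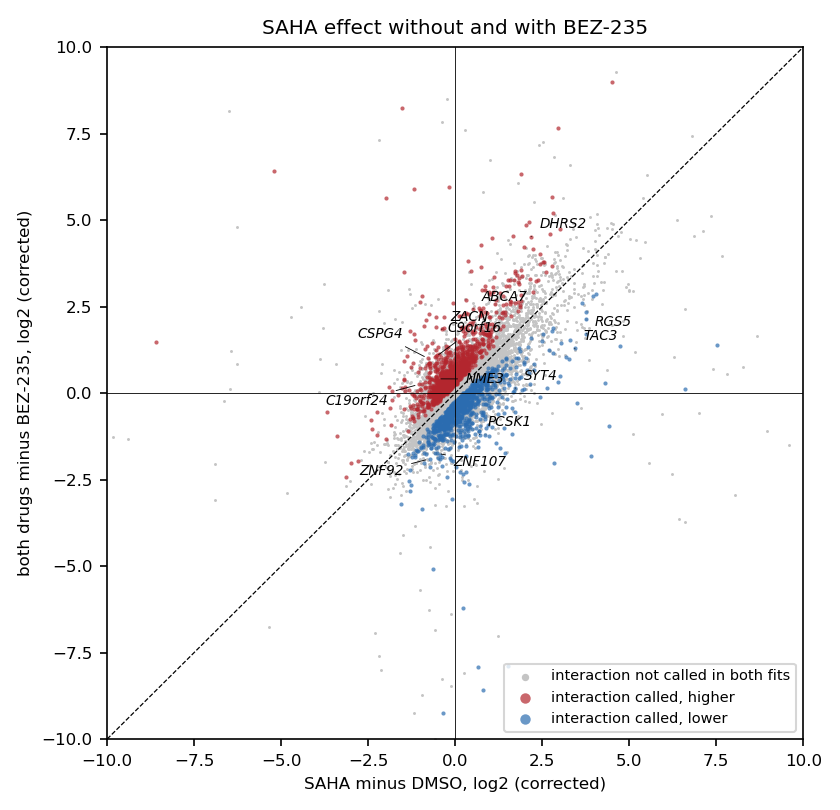
Corrected log2 difference between SAHA and DMSO (x axis) against that between both drugs and BEZ-235 (y axis), 1 point for each tested gene, with genes whose 2 responses differed in both fits in colour. The points rise together (correlation 0.62 over 17774 genes), and DHRS2 stands above the diagonal while RGS5 stands below it.

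Whether a response differed was tested as an interaction, the log2 change with SAHA in cells under BEZ-235 minus that in cells without it. The correction changed this test most: 6834 genes (38.4%) were called uncorrected and 3488 (19.6%) after the joint correction for GC content and length, and 31.9% of the uncorrected calls were kept in the same direction. The median interaction rose from -0.61 in the decile of lowest GC content to 0.90 in that of highest, and these were 0.00 and 0.03 after the correction. It also moved with transcript length, from 0.13 in the second and the third decile of length to -0.33 in the longest. After the correction it lay between -0.02 and 0.03 in every length decile. Both fits called 2181 genes (12.3%), and 1125 (6.33%) had a higher and 1056 (5.94%) a lower response under BEZ-235. Of the 4071 genes that moved in the same direction in both settings, 460 had such a difference, of which 351 responded more with BEZ-235 and 109 less. All 158 genes with opposite calls had an interaction call in both fits, which opposite calls from the same fit make close to certain.

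Among genes called in both fits and whose mean log2 CPM was at least 3, DHRS2 was among the 6 with the largest positive difference (2.33 ± 0.26, adjusted p = 3.70e-05, corrected 2.34). ABCA7 had 19.5, 22.5 and 18.9 CPM in DMSO, 5.52, 3.48 and 3.01 with BEZ-235, 36.7, 22.9 and 18.4 with SAHA and 28.7, 35.0 and 37.1 with both drugs, an interaction of 2.74 ± 0.37 (corrected 1.91). With SAHA alone it was called in the corrected fit only (0.34, adjusted p = 0.271; corrected 0.51, adjusted p = 0.0326), and its libraries with both drugs overlapped those with SAHA alone. ZACN, a zinc-activated ion channel gene, had 30.1, 34.0 and 25.6 CPM in DMSO, 11.6, 5.30 and 3.57 with BEZ-235, 17.9, 14.1 and 31.6 with SAHA and 29.2, 43.2 and 21.6 with both drugs (2.73 ± 0.65, corrected 2.23 ± 0.64, adjusted p = 0.0432 corrected), so its libraries varied widely. CSPG4, a proteoglycan of mural and glial precursor cells, had 63.9, 57.5 and 58.0 CPM in DMSO and 29.4, 33.1 and 31.7 with SAHA, but 6.65, 8.29 and 7.70 with BEZ-235 and 18.0, 23.1 and 28.9 with both drugs. SAHA thus lowered CSPG4 alone (-0.93) and raised it under BEZ-235 (1.63), with an interaction of 2.56 ± 0.19 (corrected 1.78).

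C9orf16 was likewise lower with SAHA alone (-0.75, 12.5, 12.9 and 12.7 CPM against 23.2, 25.3 and 15.8 in DMSO) and higher with SAHA under BEZ-235 (1.52 ± 0.25, 22.5, 32.8 and 43.8 CPM against 12.8, 13.3 and 8.60), an interaction of 2.28 (corrected 1.61). C19orf24 had an interaction of 2.13 (corrected 1.29), but its rise under BEZ-235 (0.84 ± 0.28, 8.13, 12.2 and 17.6 CPM against 7.99, 8.40 and 5.12) was not called after correction (0.25, adjusted p = 0.281). That call was also lost without BEZ-235 replicate 3 (0.63, adjusted p = 0.0863) or BEZ-235 & SAHA replicate 3 (0.52, adjusted p = 0.106). NME3, a nucleoside diphosphate kinase gene named after its values were seen, had 18.4, 22.8 and 37.1 CPM with both drugs against 14.5, 12.8 and 8.30 with BEZ-235, and its interaction fell from 2.02 to 0.94 with the correction. The transcripts of C9orf16 and NME3 are 60.8% and 66.0% GC. Those of ABCA7, CSPG4, C19orf24 and ZACN are 64.7%, 63.5%, 62.9% and 59.1% GC, and that of DHRS2 is 50.3%.

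Among the 6 genes with the largest negative difference by the same rule, RGS5, a regulator of G protein signalling, responded to SAHA in both settings but from and to different levels. It had 3.03, 2.16 and 2.27 CPM in DMSO and 38.5, 31.5 and 35.1 with SAHA, against 5.09, 8.29 and 6.71 with BEZ-235 and 15.4, 16.3 and 12 with both drugs (interaction -2.70 ± 0.25, corrected -2.06). TAC3 had 1.10, 1.27 and 1.02 CPM in DMSO and 17.9, 10.2 and 10.2 with SAHA, against 15.2, 11.7 and 14.1 with BEZ-235 and 35.6, 33.5 and 35.0 with both drugs (-2.12 ± 0.31, corrected -2.15). Both rose in both settings, and TAC3 reached its highest level with both drugs. PCSK1 was opposite, with a rise on SAHA alone from 54.3, 41.3 and 50.5 to 81.1, 87.3 and 81.0 CPM (0.77) and the fall under BEZ-235 given above (-1.45), an interaction of -2.22 ± 0.19 (corrected -1.90). SYT4, a synaptotagmin, rose with SAHA alone from 28.4, 27.9 and 33.4 to 101, 97.3 and 99.0 CPM, whereas with BEZ-235 it had 55.4, 85.3 and 75.3 CPM and with both drugs 58.5, 57.7 and 51.6 CPM (interaction -2.10, corrected -1.58). Its difference under BEZ-235 turned from -0.37 to 0.14 with the correction, and was not called without BEZ-235 replicate 2 (-0.24, adjusted p = 0.115) or 3 (0.0587) or BEZ-235 & SAHA replicate 3 (0.0746). ZNF107 (-1.87, corrected -1.22) and ZNF92 (-1.82, corrected -1.17) were lower with SAHA in both settings and more so under BEZ-235, where ZNF92 had 11.6, 14.6 and 14.5 CPM against 1.54, 2.98 and 2.37 CPM with both drugs. Transcript GC content was 36.6% for RGS5, 38.6% for SYT4 and 50.4% for TAC3.

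**Figure D5:**
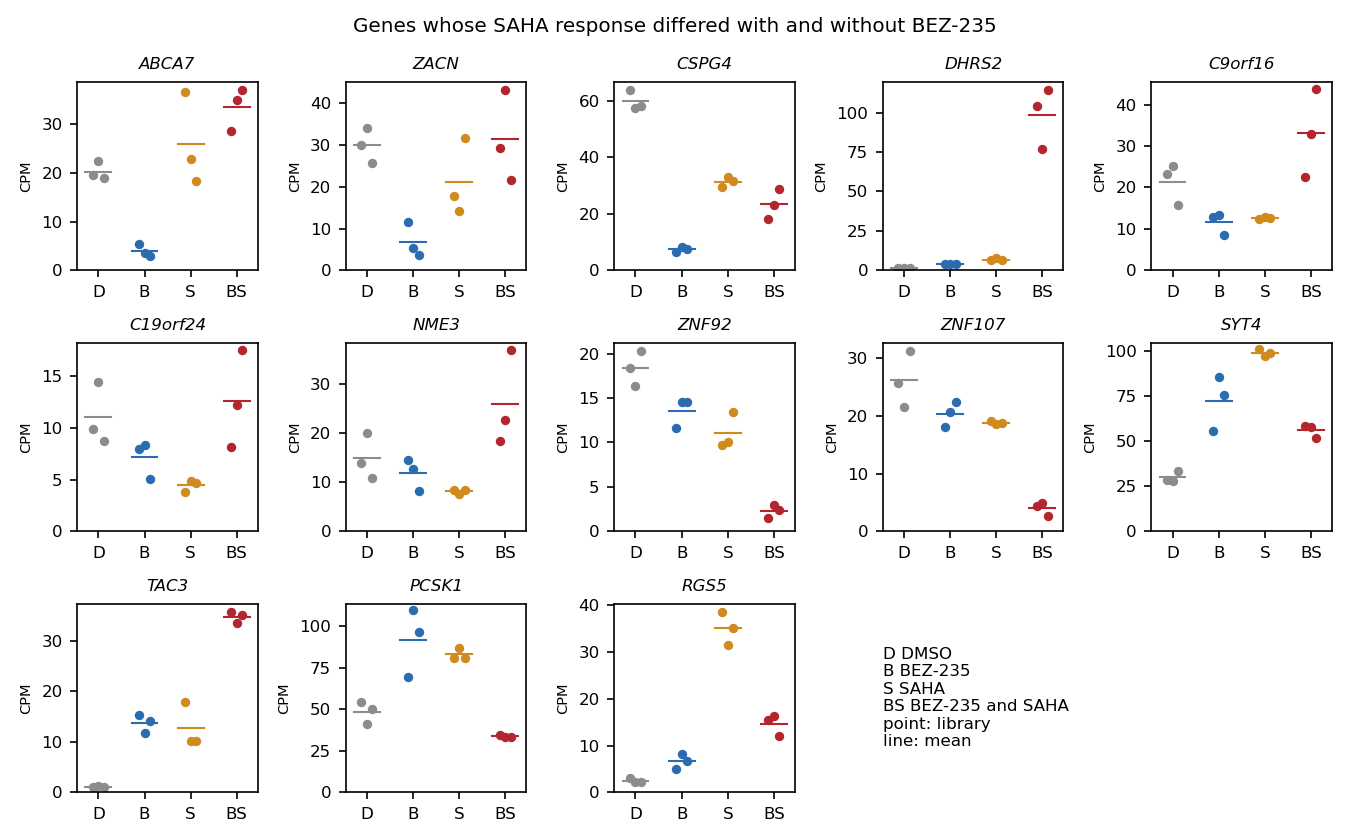
CPM in each of the 12 libraries (y axis) for 13 genes whose response to SAHA differed between cells with and without BEZ-235, with the mean of each group as a line. CSPG4 and C9orf16 are lower with SAHA than with DMSO and higher with both drugs than with BEZ-235, and PCSK1 shows the reverse.

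The lists differed in how often their members had such an interaction, beside 6.33% higher and 5.94% lower over all genes. Of 32 cholesterol and fatty acid synthesis genes 14 had a higher and 1 a lower response under BEZ-235. SAHA alone lowered 25 of them and raised none (median -0.59), beside 19.6% and 21.0% of all genes, against 11 lower and 5 higher under BEZ-235. Of 29 RAS and MAPK output genes 10 had a higher and none a lower response. ETV4, for example, fell with SAHA alone (-0.77, 17.2, 21.5 and 20.9 CPM against 36.3, 34.0 and 31.8 in DMSO) and rose under BEZ-235, with an interaction of 1.64 ± 0.14 (corrected 0.98).

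Mitosis genes showed the opposite pattern, with a lower response under BEZ-235 in 17 of 42 and a higher one in 1. Lower here is the sign of the difference between the responses, not a smaller change. SAHA alone raised 23 of them and lowered 1 (median 0.26), whereas under BEZ-235 3 rose and 10 fell. CCNB2, for example, had an interaction of -1.06 (corrected -0.83) and CCNA2 one of -0.86 (corrected -0.51). FOXO targets had a lower response in 8 of 28 and a higher one in 1: SESN3 had 260, 235 and 286 CPM in DMSO and 336, 308 and 333 with SAHA, against the fall under BEZ-235 given above (interaction -1.56 ± 0.18, corrected -0.88). Synapse and vesicle genes had a lower response in 9 of 33 and a higher one in 2, and mesenchymal genes a higher one in 6 of 21 and a lower one in 1. MYC and MYCN target genes fell in both settings, 33 of 37 with SAHA alone (median -0.48) and 28 under BEZ-235, and 3 of them had an interaction, all higher. For the title genes, the response of HBP1 differed in both fits (-0.68 ± 0.15, corrected -0.36), from a rise with SAHA alone (0.29, 59.8, 65.5 and 62.0 CPM in DMSO against 76.4, 73.7 and 79.5). MYCN (-0.04, corrected -0.41) and ALK (0.06, corrected -0.33) had an interaction called only after correction.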

How the data were processed

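NB-1 cells were profiled by mRNA sequencing in 4 groups of 3 biological replicates, as the labels give them. The authors deposited 1 table of expected counts per gene. Per the submitters' processing notes it was made with STAR, RSEM and hg38; the sources used here state neither versions nor the strand setting. These deposited expected counts were rounded (80.07% to 84.75%, zeros included, equalled a whole number exactly), filtered with edgeR 4.0.16 (filterByExpr), scaled by TMM and fitted by robust quasi-likelihood with 4 group means over all 12 libraries (R 4.3.3, 8 residual degrees of freedom). p-values were adjusted over 17774 genes by Benjamini and Hochberg. Each standard error is the absolute log2 fold change divided by the square root of its quasi-likelihood F statistic.

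The second fit used offsets from a robust spline (5 degrees of freedom each) of each library's log2 ratio to the mean library on GC content and log2 length of the longest GENCODE 29 transcript, from which gene coordinates also come; 130 tested genes had no match and kept the offset of no correction. CPM values used TMM factors. The biological coefficient of variation was 10.6%, and counting error adds to it, most for genes with few counts.

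Named genes were the 12 highest and 12 lowest (called in both fits, groups not overlapping, mean log2 CPM of at least 3), the 6 largest interactions in each direction, the 4 largest opposite responses, every tested marker of HDAC inhibition, the title genes, and up to 3 members in each direction of each of 37 lists; a few of these genes are not reported here. The members and lists were chosen with earlier results of these data known. Promoters came from RefSeq, GRCh38.p14. Alternatives were other size factors, DESeq2 1.42.0, other filters, unrounded counts, the correction, a replicate block and each library left out. The methods were tested on simulated counts with far fewer changed genes than were called here. That test therefore does not show how the correction behaves on these data. The labels give no batch or date.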

Additional observations from a re-analysis of the deposited data

Results flagged for a closer look

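The response to SAHA differed with and without BEZ-235, by the interaction test in both fits, in 2181 genes. Among those whose mean log2 CPM was at least 3, the uncorrected differences (log2, response with BEZ-235 minus response without it) were largest on the higher side for ABCA7 (2.74), ZACN (2.73), CSPG4 (2.56), DHRS2 (2.33), C9orf16 (2.28) and C19orf24 (2.13), with NME3 at 2.02. On the lower side they were largest for RGS5 (-2.70), PCSK1 (-2.22), TAC3 (-2.12), SYT4 (-2.10), ZNF107 (-1.87) and ZNF92 (-1.82). After the correction for GC content and length these values ran from 2.34 for DHRS2 to 0.94 for NME3 on the higher side and from -2.15 for TAC3 to -1.17 for ZNF92 on the lower side.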

How the results depend on the processing

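The count of 10305 genes called with SAHA added ranged from 9512 to 10562 over other size factors, DESeq2, filters, rounding, the correction and a fit of the 2 groups alone, and from 9048 to 10454 with each library left out. The count in both fits (7319) ranged from 6468 to 6973 with a library of the comparison left out, and the corrected count (9940) was 10091 without a filter, an alternative chosen after seeing the data. Calls of the interaction dropped from 6834 to 3488 with the correction and to 3012 with the correction and a replicate block. The replicate numbers did not pair the samples (correlations of same-numbered deviations from -0.40 to 0.06), and a block gave 9870 calls with SAHA added, 7095 with SAHA alone and 6161 for the interaction. The block ended the call of KIF4A (adjusted p = 0.0772), and together with the correction it ended those of RCOR3 (0.0643) and of the interactions of ZACN (0.0926) and ALK (0.0701), which the correction alone had called. Signs turned for TUBB3 (-0.34 corrected, with or without block), SYT11 (0.06 corrected, with or without block; -0.05 to 0.01 with each library left out, positive without BEZ-235 replicate 3), SYT4 (0.14 corrected, 0.15 with block), the interaction of ALK (-0.33 corrected, with or without block; -0.02 to 0.12 with each library left out, -0.02 without DMSO replicate 1 and -0.01 without BEZ-235 & SAHA replicate 3), HIST1H2BD (-0.28 to 0.03, positive without BEZ-235 replicate 1) and the interaction of MYCN (-0.13 to 0.04, with 0.04 without DMSO replicate 1 and 0.02 without BEZ-235 & SAHA replicate 2). The causes were not tested. Of 224 named genes, 216 kept direction and side of the threshold with the correction, 221 in DESeq2 and 224 with unrounded counts. Most were named because both fits called them, so the 216 was largely fixed by that choice. Over all genes, 71% of the uncorrected calls were kept in the corrected fit in the same direction.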
